A study of Arabidopsis thaliana with 51 samples.

Results

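The comparison described here is the transcript change between 2 h and 10 h of elf18 in wild-type Arabidopsis thaliana seedlings, taken as the 3 arrays labelled wild type, elf18, 10 h minus the 3 arrays labelled wild type, elf18, 2 h, which are 6 of the 51 arrays of the study. The study gave 1 µM elf18 or 1 µM Pep2 to whole seedlings of wild type and of the lines ein2-1, efr-1, pepr1-1 pepr2-3 and bak1-3, and hybridised total RNA to ATH1 arrays, with 3 biological replicates per group. Per the labels, seedlings spent 5 to 6 days on agar and then 5 to 6 days in liquid medium with 25 mM sucrose, with 12 h light alternating with 12 h dark. The 2 h and 10 h groups share genotype, peptide and dose and differ in the hours since the peptide was added. Hours of peptide and hours of the day move together in this contrast and cannot be told apart from these 6 arrays alone, and the labels give neither the clock time of treatment nor a date of harvest or hybridisation. Other groups used beside them are wild type untreated at 0 h, wild type with Pep2 at 2 h and 10 h, ein2-1 untreated and with elf18 at 2 h and 10 h, pepr1-1 pepr2-3 with Pep2 at 2 h and 10 h, and efr-1 untreated and with elf18 at 10 h. Each gene knocked out is represented by 1 line, and no untreated or mock-treated group at 2 h or 10 h was analysed here.

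Elf18 is the acetylated N-terminal peptide of bacterial elongation factor Tu, and plants of the mustard family perceive it with EFR, a leucine-rich repeat receptor kinase at the plasma membrane that acts with the co-receptor BAK1. Pep2 belongs to a family of plant peptides perceived by the related receptors PEPR1 and PEPR2, and EIN2 is a membrane protein that ethylene signalling requires. Ligand binding starts calcium influx, a burst of reactive oxygen and MAP kinase activation within minutes, and early transcription through WRKY and other factors is followed by later changes in secreted defence proteins, cell wall enzymes and photosynthesis genes. Seedlings also carry a circadian clock that turns light-harvesting, cold-response and growth genes on and off through the day without any peptide.

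All values are on the deposited log2 scale, in which the lowest value is 2.08 and the highest is 16.0. Of the 22810 probe sets, 14568 were tested, those at 5 or above on 3 arrays or more, and 7828 of those are paired with exactly 1 gene in the annotation. Array medians ran from 6.13 to 6.14 for the 2 h group and from 6.08 to 6.12 for the 10 h group. Across probe sets, arrays correlated at 0.994 or above within the 2 h group, at 0.997 or above within the 10 h group, and at 0.974 to 0.980 between the groups. A probe set was called when its adjusted p in limma was under 0.05 and its difference was at least 2-fold. Where a group sits near 2.08, the size of the difference depends on the background correction. In whole seedlings, fewer cells of a type and less RNA per cell cannot be told apart.

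Between 2 h and 10 h of elf18, 957 probe sets rose (6.57% of those tested) and 875 fell (6.01%), together 12.6%. The changes reached at least 4-fold for 239 risen and 235 fallen probe sets, at least 16-fold for 37 and 39, and at least 32-fold for 13 and 22. The median difference over all probe sets tested was -0.03. The 10 h arrays lay wholly above the 2 h arrays for 3936 probe sets (27% of those tested) and wholly below them for 4276 (29.4%). Of the 957 risen probe sets, 572 had both means at a log2 value of 6 or above and 41 had a 2 h mean within 0.5 of the lowest value. Among the 875 that fell, 464 had both means at 6 or above and 48 had a 10 h mean within 0.5 of the lowest value. Named results below come from probe sets with 1 gene, which were 464 of the risen and 407 of the fallen sets.

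**Figure D1:**
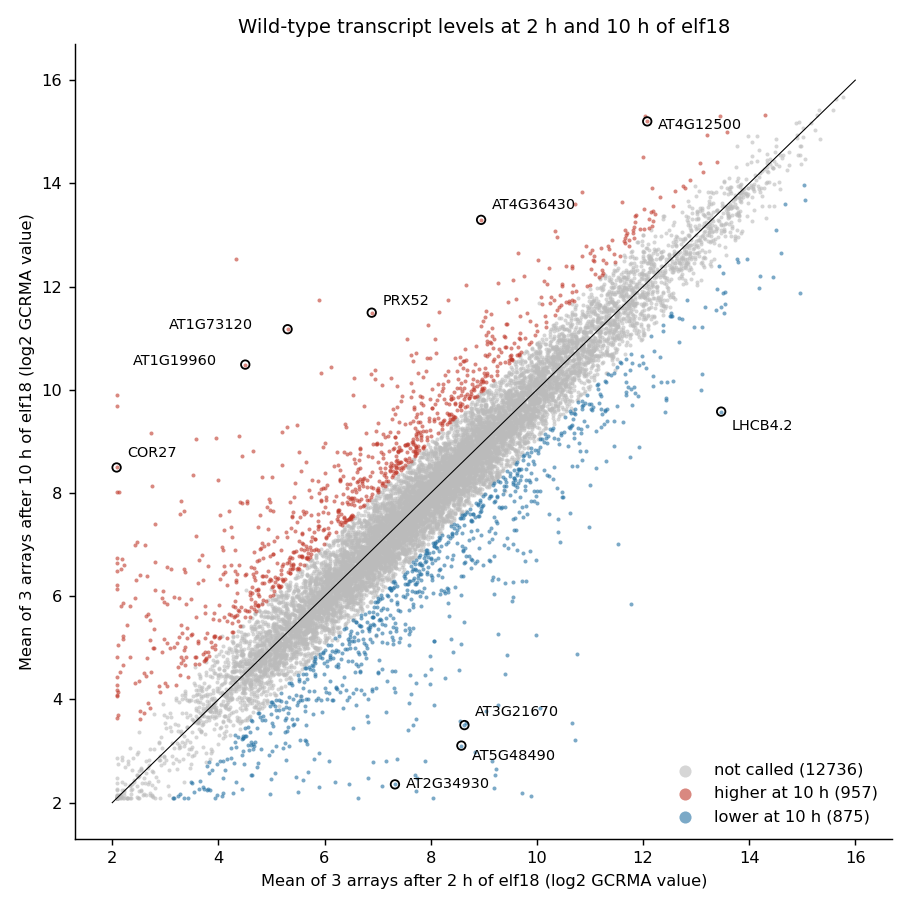
Mean log2 level of each tested probe set over 3 arrays at 2 h (horizontal) and at 10 h (vertical) of elf18 in wild type. Red points were called higher at 10 h (957), blue points lower (875) and grey points not called, with the line marking equal levels and 10 genes circled. COR27 lies at the lowest value at 2 h, and LHCB4.2 falls from a high level.

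The first group of transcripts moved by about as much in pepr1 pepr2 seedlings given Pep2, a peptide whose receptors they lack. In that line 659 probe sets rose between 2 h and 10 h (4.52%) and 749 fell (5.14%). Of the 957 that rose with elf18 in wild type, 278 rose there too, which is 29.0% of the wild-type set and 42.2% of the pepr1 pepr2 set. Of the 875 that fell, 427 fell in both, 48.8% of the wild-type set and 57.0% of the other, while 15 and 14 probe sets were called in opposite directions. Over the 659 probe sets risen in pepr1 pepr2 the median elf18 change in wild type was 0.80, and over the 749 fallen it was -1.15. These overlaps compare arrays that the contrasts do not share.

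COR27, a cold-regulated protein of the circadian clock, had the largest increase among probe sets with 1 gene. After 2 h its log2 levels were 2.08, 2.08 and 2.08, and after 10 h 8.40, 8.22 and 8.87. The 10 h arrays all stood far above the 2 h arrays, which sat at the lowest value. The difference was 6.41 ± 0.21 (SE from the fit to all 51 arrays, n = 3 per group, adjusted p = 1.8e-24, limma), beside 6.18 with Pep2 in wild type, 6.38 in pepr1 pepr2 and 6.93 with elf18 in ein2. In efr, which lacks the elf18 receptor, COR27 was 7.01 ± 0.21 higher after 10 h than at 0 h. The change in wild type with elf18 minus that in pepr1 pepr2 was 0.03 ± 0.30 (adjusted p = 0.95).

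Several other strong increases had a counterpart of similar size in pepr1 pepr2. AT4G33980 was measured at 2.12, 2.08 and 2.08 at 2 h and 6.86, 6.32 and 6.73 at 10 h, a difference of 4.54 ± 0.17 (adjusted p = 5.2e-23) against 4.75 in pepr1 pepr2. AT1G11210 went from 2.51, 3.07 and 2.84 to 7.34, 7.56 and 7.28, by 4.58 ± 0.25 (adjusted p = 1.6e-17) against 4.67. For both genes the 10 h arrays did not overlap the 2 h arrays, and the difference between the 2 changes was -0.21 ± 0.24 and -0.08 ± 0.36, neither called. AT4G16146 rose by 4.33 ± 0.33 and by 3.57 in pepr1 pepr2. AT4G12500, of the lipid transfer protein-like family, climbed from 12.48, 12.00 and 11.76 to 15.22, 15.24 and 15.15, among the highest levels on the arrays. Its change of 3.12 ± 0.52 (adjusted p = 4.4e-06) stood beside 3.53 in pepr1 pepr2 and 2.96 with Pep2 in wild type. The defensin gene PDF2.1 rose by 3.84 ± 0.24, against 3.37 in pepr1 pepr2.

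Some transcripts that rose in both settings rose less with elf18. AT1G07050, a CCT-motif protein, read 2.09, 2.09 and 2.08 at 2 h and 6.32, 6.29 and 6.89 at 10 h, with no overlap. Its increase of 4.41 ± 0.18 was smaller than the 6.69 in pepr1 pepr2, a difference of -2.28 ± 0.25 (adjusted p = 1.6e-08), and smaller than with Pep2 in wild type, a difference of -2.07 ± 0.25 (adjusted p = 1.7e-08). The gene of a DnaJ-domain protein, AT1G56300, rose by 3.67 ± 0.35 with elf18 and by 5.88 in pepr1 pepr2, a difference of -2.21 ± 0.49 (adjusted p = 0.00075). PORB, a protochlorophyllide oxidoreductase of chlorophyll synthesis, rose by 1.11 ± 0.17 with elf18 and by 2.56 in pepr1 pepr2, a difference of -1.45 ± 0.24 (adjusted p = 2.1e-05).

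Large decreases were shared with pepr1 pepr2 as well. AT5G48490, a lipid transfer-like protein, was at 10.35, 10.55 and 10.84 at 0 h, 8.79, 7.58 and 9.36 at 2 h and 2.95, 2.77 and 3.60 at 10 h. From 2 h to 10 h it fell, with a difference of -5.47 ± 0.49 (adjusted p = 8.3e-12), beside -5.54 in pepr1 pepr2, and the arrays of the 2 times were far apart. AT3G21670, of the nitrate transporter family, dropped from 8.96, 8.36 and 8.59 to 3.83, 3.21 and 3.47, a difference of -5.13 ± 0.47 (adjusted p = 1.9e-11) beside -5.10. LHCB4.2, a minor light-harvesting antenna protein of photosystem II, read 13.72, 13.07 and 13.62 at 2 h and 9.79, 8.98 and 9.96 at 10 h. Its 10 h arrays were all lower than its 2 h arrays, with a difference of -3.90 ± 0.22 (adjusted p = 4.8e-17), beside -3.46 in pepr1 pepr2 and -3.16 with Pep2 in wild type. AT5G48570, an FKBP-type immunophilin, AT3G16800, a protein phosphatase of the PP2C family, and AT2G41250, a hydrolase of the HAD family, fell as well, with differences of -3.65 ± 0.29, -3.86 ± 0.23 and -3.16 ± 0.38. In pepr1 pepr2 the same 3 genes fell too, with differences of -3.15, -3.47 and -3.83. BGLU40, a beta-glucosidase, fell with a difference of -3.13 ± 0.31, beside -2.64 there.

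Among transcripts well above background at both times, AT5G12110, a subunit of translation elongation factor 1B, went from 10.19, 9.18 and 9.80 to 6.28, 6.31 and 6.30, and the 10 h arrays agreed closely with one another. The difference was -3.42 ± 0.25 (adjusted p = 3.6e-14), beside -2.31 in pepr1 pepr2, and the change in wild type was the more negative, at -1.11 ± 0.35 (adjusted p = 0.015). AT3G56290 read 11.70, 11.78 and 11.83 at 0 h, 10.88, 10.24 and 10.74 at 2 h and 7.51, 7.76 and 7.58 at 10 h, each set below the one before. Its change of -3.00 ± 0.23 was smaller in size than the -4.12 in pepr1 pepr2, by 1.12 ± 0.33 (adjusted p = 0.009). AT2G34620, of the mTERF family of organelle proteins, fell with a difference of -3.51 ± 0.27 and AT4G24700 with -4.11 ± 0.34, beside -2.83 and -4.68. M17, a seed maturation protein, was at or near the lowest value at 10 h, unlike the transcripts that open this paragraph. It went from 6.67, 6.49 and 6.71 to 2.08, 2.13 and 2.08, a difference of -4.53 ± 0.59 (adjusted p = 4.4e-08) beside -3.30.

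**Figure D2:**
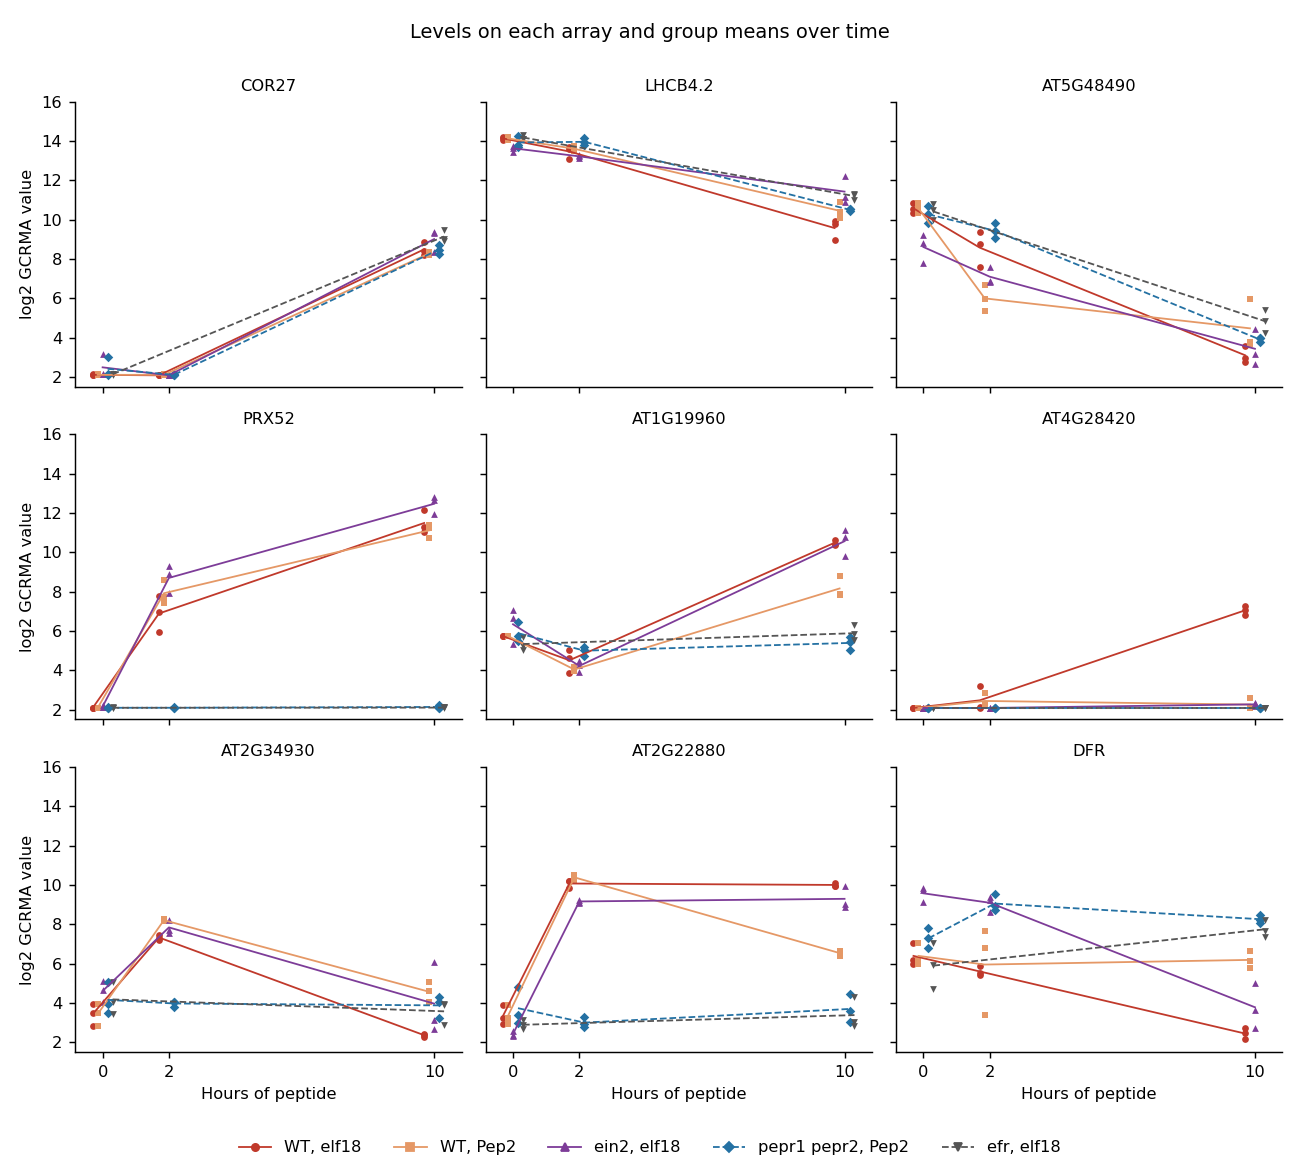
Log2 level of 9 genes at 0, 2 and 10 h of peptide, with 1 symbol per array, lines through group means and small horizontal offsets between groups. Efr-1 has no 2 h group here, so its line joins 0 h and 10 h. COR27 is between 8.28 and 9.15 on average in every line at 10 h, PRX52 stays near 2.08 in pepr1 pepr2 and efr, and AT4G28420 leaves that level in wild type with elf18.

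A second group rose between 2 h and 10 h of elf18 with little or no change in pepr1 pepr2. The difference between the elf18 change in wild type and the change in pepr1 pepr2 was called higher for 790 probe sets (5.42%) and lower for 670 (4.6%). Genotype and peptide both differ between the 2 changes. AT1G19960 was at 5.72, 5.72 and 5.77 at 0 h, 3.85, 5.05 and 4.62 at 2 h and 10.37, 10.64 and 10.45 at 10 h, so the 2 h arrays lay below the untreated ones and the 10 h arrays above both. It rose by 5.98 ± 0.33 (adjusted p = 1.7e-17) and by 6.35 in ein2, against 0.39 in pepr1 pepr2. AT1G73120 went from 5.57, 4.82 and 5.52 to 11.02, 12.19 and 10.31, by 5.87 ± 0.57 (adjusted p = 6.2e-11), with 10 h arrays that spread over nearly 2 log2 units and still cleared the 2 h arrays. In pepr1 pepr2 it differed by -1.13, and the difference of 7.00 ± 0.80 was the largest positive difference among probe sets with 1 gene (adjusted p = 3.4e-08). AT3G60470, a protein with a domain of unknown function, read 2.08, 2.09 and 2.08 at 2 h and 6.97, 6.42 and 6.83 at 10 h, while it read 2.08 on average in pepr1 pepr2, in efr and in wild type with Pep2 at 10 h. AT1G51915 also rose late, with 3.46, 2.18 and 2.19 at 2 h and 6.93, 6.86 and 7.16 at 10 h, a rise of 4.37 ± 0.33 (adjusted p = 1.1e-13) and of 3.41 in ein2. Its change in pepr1 pepr2 was 0.00, with the gene near the lowest value at both times.

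The listed class III peroxidases, secreted enzymes that make or use hydrogen peroxide in the cell wall, mostly rose between 2 h and 10 h. Of 10 listed peroxidases tested, 8 rose, none fell, and the median change was 1.76, against 6.57% risen and a median of -0.03 over all probe sets. This list, like the others, was chosen with earlier results of these data known. PRX52 was at 2.08, 2.08 and 2.08 at 0 h, 6.96, 7.77 and 5.94 at 2 h and 11.27, 12.17 and 11.04 at 10 h. Each later set of arrays lay above the one before, and the step from 2 h to 10 h was 4.61 ± 0.31 (adjusted p = 4.5e-15). In pepr1 pepr2 it differed by 0.04 and in efr by 0.01 over 10 h, near the lowest value throughout. AT4G36430, a peroxidase gene outside the 10 counted and named for the size of its increase, went from 8.78, 9.16 and 8.90 to 13.34, 13.20 and 13.33, a tight pair of groups 4.34 ± 0.22 apart (adjusted p = 2.3e-18), and differed by 0.49 in pepr1 pepr2 and 0.19 with Pep2. AT5G39580 climbed from 10.91, 11.06 and 10.60 to 13.98, 13.69 and 13.84, by 2.98 ± 0.32 (adjusted p = 6.6e-10). With Pep2 the same transcript fell by 2.47 on the log2 scale, a difference between peptides of 5.46 ± 0.45 (adjusted p = 2.1e-12), and it rose by 2.58 in pepr1 pepr2. AT1G14550 was uneven at 2 h, with 4.02, 6.22 and 2.37, and higher on every array at 10 h, with 7.01, 7.47 and 8.47, a change of 3.44 ± 0.52 (adjusted p = 1.1e-06). Across the 10 genes, 4 rose in pepr1 pepr2, 5 rose and 1 fell with Pep2 in wild type, and 4 rose in ein2 with elf18. Their medians were 1.14, 1.01 and 1.08. Over all probe sets 4.52% rose in pepr1 pepr2, 9.25% rose and 10.4% fell with Pep2, and 5.21% rose in ein2. The elf18 change in wild type was called higher than that in pepr1 pepr2 for 3 of the 10 and lower for none, against 5.42% and 4.6% of all probe sets.

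Of 2 tested genes of nitrogen transport and assimilation, 1 rose and 1 fell, the latter being AT3G21670, at -5.13 ± 0.47. NRT2.5, a high-affinity nitrate transporter, read 2.08, 2.08 and 2.08 at 0 h, 5.87, 4.91 and 5.91 at 2 h and 8.49, 7.82 and 8.95 at 10 h. All 10 h arrays were above all 2 h arrays, by 2.85 ± 0.27 (adjusted p = 3.5e-11), and the gene read 2.09 and 2.09 on average at 2 h and 10 h of Pep2 in wild type. Glutamate receptor-like genes encode cation channels, and 2 of the 5 tested rose with none fallen, against 6.57% risen over all probe sets. GLR2.9 went from 2.26, 2.08 and 2.14 to 6.12, 6.47 and 6.99, by 4.37 ± 0.38 (adjusted p = 3.1e-12). ATGLR1.2 went from 2.56, 4.69 and 2.80 to 7.37, 7.37 and 8.23, by 4.31 ± 0.32 (adjusted p = 9.9e-14). Neither overlapped between the times. Of the other members, GLR1.4 differed by 0.87 and GLR3.3 by -0.89, neither called.

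Of 3 tested genes of the salicylic acid pathway 2 rose and none fell, against 6.57% risen and 6.01% fallen over all probe sets. UGT76B1, a glucosyltransferase of salicylic acid and of a related hydroxy acid, read 9.30, 9.48 and 8.99 at 2 h and 11.92, 12.07 and 12.22 at 10 h. These groups were clearly separated, by 2.81 ± 0.19 (adjusted p = 8.5e-15), and UGT76B1 differed by 0.40 in pepr1 pepr2. GRX480, a glutaredoxin that binds TGA transcription factors, went from 3.93, 5.31 and 3.93 to 6.68, 6.74 and 6.38, by 2.21 ± 0.34 (adjusted p = 1.4e-06), and fell with Pep2 by a difference of -1.49. SAG101, a lipase-like partner of EDS1 in immune receptor signalling, differed by 0.68 ± 0.26, short of the 2-fold minimum. AT5G52810, which acts in the synthesis of the immune signal pipecolic acid, climbed from 8.49, 8.20 and 8.30 to 11.55, 11.69 and 11.95, by 3.40 ± 0.21 (adjusted p = 3.9e-16), and by 1.20 in pepr1 pepr2. Single members of other lists rose as well. AT2G04400, of tryptophan synthesis, rose by 1.34 ± 0.24, the chitinase gene ChiC by 1.90 ± 0.25 and the tetraspanin TET8, a membrane protein of secreted vesicles, by 1.32 ± 0.17. In the larger family of UDP-glycosyltransferases 4 of 37 rose and 2 fell, near the 6.57% and 6.01% of all probe sets, with a median of 0.10, and UGT76B1 and UGT73D1, which rose by 2.18 ± 0.26, stood at the top of a family in which 31 members were not called. Among 10 autophagy genes 2 rose and none fell, against 6.57% risen over all probe sets, with ATG8D, a ubiquitin-like protein of the autophagosome, higher by 1.79 ± 0.13 and by 1.27 in pepr1 pepr2.

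Of 9 early immunity markers tested, 3 rose and 1 fell between 2 h and 10 h, against 12.6% called over all probe sets, and 5 were not called. The median change was -0.07. Against 0 h their median was 4.41 higher at 2 h and 4.14 higher at 10 h, comparisons that share arrays with the change itself. AT2G22880, a VQ-motif protein, read 3.88, 3.23 and 2.93 at 0 h, 9.82, 10.19 and 10.21 at 2 h and 9.93, 9.97 and 10.11 at 10 h. Both treated groups overlapped, with a difference of -0.07 ± 0.34 (adjusted p = 0.88), while both stood far above the untreated arrays. WRKY53, a transcription factor of immune responses and leaf ageing, rose further, from 8.96, 8.56 and 8.54 to 10.54, 10.15 and 10.43, by 1.69 ± 0.42 (adjusted p = 0.001), and by 1.31 in pepr1 pepr2. CML41, a calmodulin-like protein, rose by 1.87 ± 0.54, with 1.56 in pepr1 pepr2. WRKY6, of the same factor family as WRKY53, climbed from 7.92, 7.87 and 8.39 to 9.43, 9.24 and 9.53, by 1.34 ± 0.17 (adjusted p = 3.5e-08), where Pep2 gave -2.15. PUB24, a U-box ubiquitin ligase that dampens immune signalling, rose by 1.03 ± 0.25 (adjusted p = 0.00089), close to the 2-fold minimum. Its relatives PUB22 and PUB23 differed by -0.43 and -0.62, the WRKY factor WRKY22 by -0.85 and the zinc finger STZ by 0.77, none of them called. The member that fell was AT1G26380, a berberine bridge enzyme-like oxidase, from 10.40, 11.03 and 10.93 to 8.66, 8.76 and 9.49, by a difference of -1.82 ± 0.57 (adjusted p = 0.0082), still above its untreated levels of 2.73, 4.95 and 2.96.

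The receptor itself and its partner kinase BIK1 were not called. EFR read 3.39, 3.42 and 2.84 at 0 h, 6.39, 6.63 and 6.11 at 2 h and 7.16, 6.83 and 6.83 at 10 h, and the later groups did not overlap but differed by 0.56 ± 0.22 (adjusted p = 0.036), less than 2-fold. In pepr1 pepr2 EFR rose by 1.55 between the same times. BIK1, a cytoplasmic kinase of the receptor complex, differed by 0.35 ± 0.17, and SD1-29, the receptor kinase for bacterial hydroxy fatty acids, by -0.06 ± 0.21. A chromosome 1 cluster of leucine-rich repeat receptor kinase genes had 2 of 7 members higher, against 6.57% over all probe sets, and none lower. Of these AT1G51860 went from 8.17, 8.43 and 8.16 to 9.95, 9.83 and 9.70, by 1.57 ± 0.25 (adjusted p = 2.9e-06), beside -0.34 in pepr1 pepr2. Another member, AT1G51890, went from 10.15, 10.44 and 10.14 to 11.15, 11.04 and 11.24, by 0.90 ± 0.40, less than 2-fold, beside 1.74 in pepr1 pepr2. In that line 3 of the 7 members rose and none fell, at a median of -0.05, against 4.52% risen over all probe sets. Of 10 genes of secretion and the exocyst, which tethers vesicles to the plasma membrane, none was called, the largest difference being 0.71 ± 0.19 for SEC1B. Of 15 genes of protein folding in the endoplasmic reticulum none was called in either direction at a median of 0.01. Their median was 0.81 higher at 2 h than at 0 h. BZIP60, a transcription factor of the unfolded protein response, had the largest change of the 15, 0.82 ± 0.13 (adjusted p = 1.4e-06), and the co-chaperone ATERDJ3B went from 12.31, 11.92 and 11.97 to 11.85, 11.78 and 11.99, by -0.20.

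A list of early elf18 transcripts was also taken from arrays outside these 6. In ein2 seedlings 1287 probe sets were higher (8.83%) and 1036 lower (7.11%) at 2 h of elf18 than at 0 h. Of the 1287, 858 were not called between 2 h and 10 h in wild type, 281 (21.8%) rose and 148 (11.5%) fell. Their median was 0.27. Of the 1036, 749 were not called, 195 (18.8%) fell and 92 (8.88%) rose, at a median of -0.20. Over all probe sets tested, 6.57% rose and 6.01% fell between these times in wild type.

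For 4 of the transcripts that fell, grouped here after their values were seen, all 2 h arrays were above all 0 h arrays and the 10 h levels were near or below those of 0 h. AT2G34930, a leucine-rich repeat protein of a disease-resistance family, read 3.48, 3.97 and 2.84 at 0 h, 7.21, 7.45 and 7.32 at 2 h and 2.43, 2.28 and 2.34 at 10 h. Its 2 h arrays stood above both other times without overlap, and the drop of -4.97 ± 0.49 (adjusted p = 7.5e-11) compares with -0.10 in pepr1 pepr2. AT1G69570, a Dof zinc finger protein, was at 5.12, 4.86 and 4.84, 7.19, 7.22 and 7.07 and 2.68, 3.02 and 2.72 at the 3 times, so that its 10 h level was the lowest. It fell with a difference of -4.36 ± 0.20 (adjusted p = 8.5e-20), beside -1.50 in pepr1 pepr2. CYP71B5, a cytochrome P450, went from 8.63, 8.90 and 8.78 at 2 h to 6.54, 7.14 and 6.43 at 10 h, near its 0 h levels of 6.48, 6.97 and 6.40, by -2.07 ± 0.17 (adjusted p = 1.9e-12). AT5G47330, an alpha/beta-hydrolase, was at 4.05, 4.18 and 3.75, 6.58, 7.44 and 6.67 and 4.18, 4.35 and 4.10, a drop of -2.68 ± 0.37 (adjusted p = 1.5e-07) where pepr1 pepr2 rose by 1.75.

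A part of the nuclear photosynthesis genes fell. Of 30 nuclear genes of chloroplast photosynthesis, 8 fell and 3 rose, against 6.01% and 6.57% of all probe sets. Of the 30 differences 25 were negative, and the median was -0.71 against -0.03 for all probe sets. In pepr1 pepr2 the median over the same genes was -0.22, with 3 fallen and 1 risen, against 5.14% and 4.52% of all probe sets. The difference between the changes was called lower for 9 and higher for 3, against 4.6% and 5.42% of all probe sets. CaS, a calcium-sensing protein of the thylakoid, read 11.65, 11.16 and 11.56 at 2 h and 9.08, 8.69 and 8.96 at 10 h, with no overlap, by -2.55 ± 0.21 (adjusted p = 1.9e-12) beside -1.34 in pepr1 pepr2. CHLM, a methyltransferase of chlorophyll synthesis, went from 11.93, 11.35 and 11.79 to 10.16, 9.93 and 10.35, by -1.54 ± 0.15 (adjusted p = 1.1e-10) beside -0.44, and NdhL, part of the chloroplast NDH complex of electron flow around photosystem I, from 8.22, 7.73 and 8.48 to 6.68, 6.49 and 7.02, by -1.41 ± 0.16 (adjusted p = 1.5e-09) beside -0.15. For each of these 3 genes the change in wild type was lower than in pepr1 pepr2, with differences of -1.21 ± 0.30, -1.10 ± 0.22 and -1.27 ± 0.22 (adjusted p = 0.0025, 0.00017 and 4e-05). For LHCB4.2 that difference was -0.44 ± 0.32 and was not called.

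RCA, which encodes Rubisco activase, was among the brightest probe sets and went from 15.13, 14.96 and 15.00 to 14.08, 13.79 and 14.03, by -1.06 ± 0.08 (adjusted p = 3.9e-13). Without the second 10 h array its difference was -0.97, under the 2-fold minimum. SBPASE, an enzyme of the Calvin cycle, and PSB27, an assembly factor of photosystem II, both fell, each by 1.10 on the log2 scale. The 3 genes that rose were PIFI and TAAC, by 1.86 ± 0.14 and 1.76 ± 0.17, and PORB. TAAC, an adenine nucleotide carrier of the thylakoid, differed by 0.13 in pepr1 pepr2. Probe sets of the plastid genome showed a small shift of one sign, with all 41 differences negative at a median of -0.47, 2 of them called, beside a median of 0.09 in pepr1 pepr2. With Pep2 in wild type the median was -0.28, with 3 fallen, against 10.4% of all probe sets. With elf18 in ein2 the median was -0.06. The difference between peptides was called for 1 of the 41. The 2 members called with elf18 in wild type were psaC and psbC, at -1.16 and -1.07. Both lost the call in 3 or more of the 15 other settings or array sets tried.

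Several cell wall and pigment genes fell too. Of 9 xyloglucan endotransglucosylases, enzymes that cut and rejoin wall polymers, 5 fell and 1 rose, at a median of -1.05. Over all probe sets 6.01% fell and 6.57% rose. In pepr1 pepr2 the median over the 9 genes was -0.51, with 1 fallen and 2 risen, against 5.14% and 4.52% of all probe sets. XTH19 went from 8.75, 9.00 and 9.09 to 7.30, 7.12 and 7.15, by -1.76 ± 0.21 (adjusted p = 6.8e-09), and XTH32 from 9.84, 10.09 and 9.76 to 8.48, 8.48 and 8.20, by -1.51 ± 0.18 (adjusted p = 6.4e-09), with no overlap in either. Expansins, which loosen walls, were mixed, with 2 risen and 1 fallen of 11, among them EXLB1 at 2.71 ± 0.26 and EXPA8 at -1.60 ± 0.36. These 2 genes differed by 1.84 and -3.26 in pepr1 pepr2. EXPA8 averaged 2.48 at 10 h of elf18, near the lowest value. Of 5 genes of flavonoid and anthocyanin synthesis 3 fell and none rose. DFR, the dihydroflavonol reductase that commits flavonoids to anthocyanins, read 7.03, 5.98 and 6.16 at 0 h, 5.87, 5.53 and 5.39 at 2 h and 2.71, 2.45 and 2.16 at 10 h, and each set of arrays lay below the one before. Its change of -3.16 ± 0.65 (adjusted p = 0.00012) compares with -5.32 in ein2, -0.80 in pepr1 pepr2 and 0.24 with Pep2. The anthocyanin glucosyltransferase genes UF3GT and AT4G14090 fell by differences of -1.89 ± 0.45 and -1.49 ± 0.38.

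Lipid transfer protein-like genes split by gene, with 3 risen and 4 fallen of 8, against 6.57% and 6.01% over all probe sets. AT2G10940 was one of those that fell, from 9.16, 8.88 and 9.52 to 5.64, 5.94 and 6.53, by -3.15 ± 0.36 (adjusted p = 2.4e-09). In pepr1 pepr2 it differed by -0.31, and in wild type with Pep2 by 0.40. Over the 8 genes, 3 rose and 3 fell in pepr1 pepr2, against 4.52% and 5.14% of all probe sets there. Of 14 defence peptide and PR protein genes 3 rose and 1 fell, against 12.6% called over all probe sets. The fallen one, the thionin gene THI2.2, went from 7.70, 6.54 and 7.57 to 4.40, 4.26 and 4.98, by -2.72 ± 0.38 (adjusted p = 1.7e-07). AT4G33720, a PR-1-like gene, varied so much between replicates that no change could be called, at 10.18, 11.96 and 7.97 at 2 h and 11.90, 12.01 and 11.13 at 10 h (1.65 ± 1.20, adjusted p = 0.26). GI, a clock and flowering-time regulator, fell by a difference of -1.15 ± 0.17, beside -0.06 in pepr1 pepr2.

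**Figure D3:**
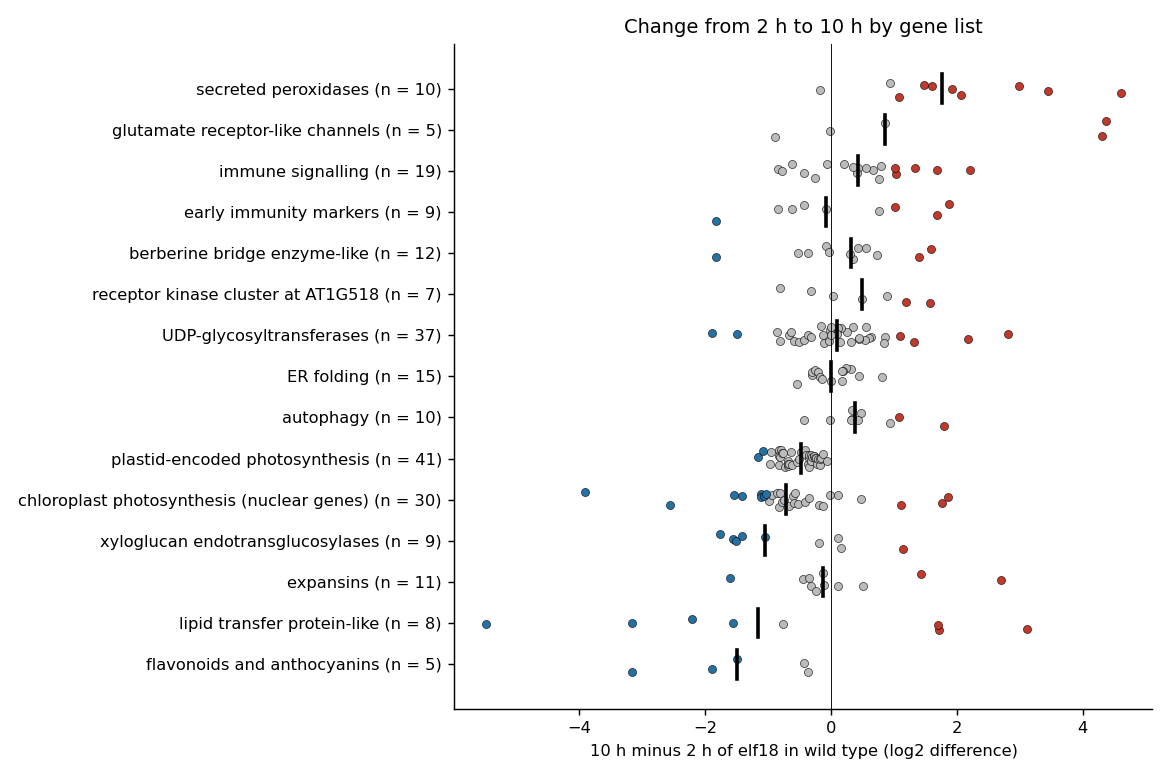
Log2 change from 2 h to 10 h of elf18 in wild type for the tested members of 15 gene lists, with 1 point per gene, black bars at list medians and small vertical offsets. Red and blue points passed the call for higher and lower, and grey points did not. Peroxidases lie to the right at a median of 1.76, and nuclear photosynthesis genes to the left at -0.71.

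The change between the same times differed strongly between elf18 and Pep2 in wild type. With Pep2, 1348 probe sets rose (9.25%) and 1516 fell (10.4%), and the test of the difference between the peptides called 1529 probe sets higher with elf18 (10.5%) and 1484 lower (10.2%). Of the 957 that rose with elf18, 363 also rose with Pep2 (37.9%, and 26.9% of the Pep2 set) and 167 fell (17.5%, and 11.0%). Of the 875 that fell, 402 also fell with Pep2 (45.9%, and 26.5%) and 40 rose (4.57%, and 2.97%).

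The listed immune transcripts were on different courses with the 2 peptides. Of 19 immune signalling genes, 5 rose and none fell between 2 h and 10 h of elf18, at a median of 0.43. With Pep2 none rose and 14 fell, at a median of -1.49. Over all probe sets, 6.57% rose and 6.01% fell with elf18, and 9.25% rose and 10.4% fell with Pep2. In pepr1 pepr2, 5 of the 19 rose and none fell, at a median of 0.31, against 4.52% and 5.14% of all probe sets. The difference between peptides was called higher with elf18 for 13 of the 19 and lower for none. Over all probe sets these shares were 10.5% and 10.2%. Among the 9 early immunity markers, 8 fell and 1 rose with Pep2, and the difference was called higher with elf18 for 7. AT2G22880 stood at 10.39 ± 0.16 (SD, n = 3) at 2 h and 6.54 ± 0.13 at 10 h of Pep2, against 10.07 ± 0.22 and 10.00 ± 0.10 with elf18, a difference between changes of 3.78 ± 0.49 (adjusted p = 4.9e-08). For WRKY53 the difference was 4.46 ± 0.59 and for PUB24 4.37 ± 0.36 (adjusted p = 9.4e-08 and 1.3e-12). EFR fell with Pep2 by a difference of -1.16, beside a rise of 1.55 in pepr1 pepr2, and the difference between peptides was 1.72 ± 0.32 (adjusted p = 2.7e-05). CCR2, an enzyme of lignin synthesis, read 7.91, 8.39 and 7.39 at 2 h and 7.88, 7.64 and 7.84 at 10 h of elf18 and fell by a difference of -4.92 with Pep2.

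The 5 largest differences in which the elf18 change was the higher came from transcripts that rose with elf18 and fell with Pep2. AT3G48650 rose from 4.45, 5.37 and 4.54 to 7.50, 7.25 and 7.98 with elf18, by 2.79 ± 0.25, and went from 6.93 to 2.36 on average with Pep2, a difference of 7.36 ± 0.36 (adjusted p = 9.7e-19). AT4G23610 rose by 3.15 and AT5G52740, a heavy-metal-associated domain protein, by 3.86 with elf18, and both fell with Pep2, with changes of -3.73 and -2.33. AT1G24140, a matrix metalloproteinase, rose by 2.58 with elf18 and differed by -3.48 with Pep2. Among the berberine bridge enzyme-like genes, AT1G26410 and AT1G30700 rose by 1.59 and 1.40 with elf18 and differed by -2.49 and -2.08 with Pep2. Of the 5 largest differences in which the Pep2 change was the higher, 1 came from opposite calls, that of CIL. AT5G52390 stayed at 2.08 at 2 h and 10 h of elf18 and rose by 7.22 with Pep2. The plant defensin gene PDF1.2, a marker of jasmonate and ethylene responses, differed by -0.87 ± 0.76 with elf18 (adjusted p = 0.37) and rose by 3.43 with Pep2, a difference of -4.29 ± 1.08 (adjusted p = 0.0014). CIL, a relative of the chloroplast import regulator CIA2, fell by a difference of -1.21 with elf18 and rose by 3.32 with Pep2.

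**Figure D4:**
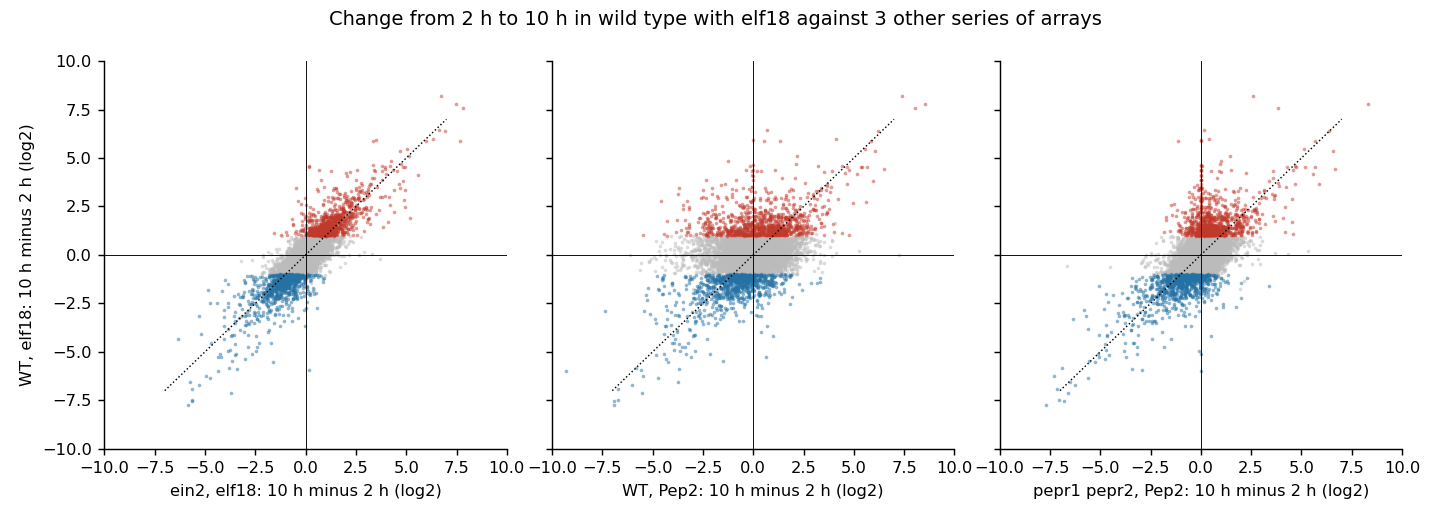
Log2 change from 2 h to 10 h in wild type with elf18 (vertical) against the change between the same times in ein2 with elf18, wild type with Pep2 and pepr1 pepr2 with Pep2 (horizontal), with 1 point per tested probe set. Red and blue points rose (957) and fell (875) with elf18 in wild type, grey points were not called, and the dotted line marks equal change. Of the red points, 558 also rose in ein2, 363 in wild type with Pep2 and 278 in pepr1 pepr2.

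Other transcripts changed with time in pepr1 pepr2 and were not called with elf18 in wild type. AT2G39920, an acid phosphatase-like protein, read 2.08, 2.08 and 2.08 at 2 h and 2.38, 2.09 and 2.34 at 10 h of elf18, near the lowest value, and rose by 5.32 in pepr1 pepr2, a difference of -5.14 ± 0.21 (adjusted p = 2.8e-20). It also rose by 5.28 with Pep2 in wild type, and in efr it stood 5.75 above 0 h after 10 h of elf18. AT4G01130, a GDSL-type lipase, and AT1G31690, a copper amine oxidase, differed by 0.02 and 0.08 with elf18 and rose by 4.34 and 3.70 in pepr1 pepr2. AT2G27420, a papain-like protease, was at 7.59, 7.93 and 8.49 at 0 h and already at 3.26, 2.16 and 2.82 at 2 h of elf18, with 2.16, 2.15 and 2.16 at 10 h. In pepr1 pepr2 it was at 8.80 at 2 h and 2.17 at 10 h, so there the level dropped between the times compared.

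Over the same hours of elf18, ein2 seedlings shared most of the wild-type calls in each direction. In ein2, 759 probe sets rose (5.21%) and 709 fell (4.87%). Of the 957 risen in wild type 558 rose in ein2, which is 58.3% of the wild-type set and 73.5% of the ein2 set, and of the 875 fallen 504 fell, 57.6% and 71.1%. In opposite directions there were 2 and 0 probe sets. The difference between the lines was called higher in ein2 for 150 probe sets (1.03%) and lower for 107 (0.734%). These counts were 86 and 62 when only the groups compared were fitted and 231 and 229 with array weights.

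Genes of the late rise were among those that differed. AT4G28420, of the tyrosine transaminase family, went from 2.08, 3.22 and 2.11 at 2 h to 7.27, 6.79 and 7.08 at 10 h in wild type, without overlap, by 4.58 ± 0.18 (adjusted p = 3.7e-22). In ein2 it was at 2.08 ± 0.00 and 2.27 ± 0.10 (SD, n = 3), so the change was smaller, a difference of -4.40 ± 0.26 (adjusted p = 2.4e-15). GLR2.9 differed by 0.65 in ein2, less than in wild type, a difference of -3.72 ± 0.53 (adjusted p = 1.8e-05), and ATGLR1.2 rose by 1.28, a difference of -3.03 ± 0.46 (adjusted p = 4.3e-05). The peroxidase gene AT1G14550 differed by -0.49 in ein2 and the nitrate transporter gene NRT2.5 by 0.91, with differences from wild type of -3.93 ± 0.74 and -1.95 ± 0.38 (adjusted p = 0.00093 and 0.0015). NRT2.5 was near the lowest value in ein2, at 2.09 and 2.99 on average. By contrast PRX52, AT4G36430 and UGT76B1 rose in ein2 by 3.77, 3.80 and 2.87, and their differences from wild type were not called.

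Transcripts that fell in wild type and were not called in ein2 included AT5G57760, which read 8.62, 7.82 and 8.62 at 2 h and 4.93, 5.68 and 6.25 at 10 h in wild type. It fell with a difference of -2.73 ± 0.29 (adjusted p = 6.1e-10) and differed by 0.57 in ein2 (difference 3.30 ± 0.41, adjusted p = 1.4e-06). In ein2 this transcript was already near the lowest value untreated, at 2.14, and at 2.21 at 2 h. The change of LHCB4.2 was less negative in ein2, by 2.10 ± 0.32 (adjusted p = 4.2e-05), and GI differed by 0.62 there, a difference of 1.77 ± 0.24 (adjusted p = 8.9e-06). AT4G14090 had a more negative change in ein2 than in wild type, a difference of -2.37 ± 0.54 (adjusted p = 0.0076).

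Tissue markers could be read for leaf and root through 1 gene each, RCA of 5 leaf mesophyll markers and EXPA7 of 7 root markers. EXPA7, an expansin of root hairs, was at 6.67, 6.84 and 7.19 at 2 h and 6.54, 6.75 and 6.35 at 10 h, overlapping groups that differed by -0.35 ± 0.23 (adjusted p = 0.22). No guard cell marker of 3 and no flower or seed marker of 5 was tested with 1 gene. Counts in several other families were small or near the 12.6% called over all probe sets. None of 12 glutathione transferases rose and 2 fell, none of 5 SWEET sugar transporters was called, and 1 of 7 RALF-like peptide genes rose. That gene was RALFL33, a secreted signalling peptide, which went from 9.71, 9.43 and 9.45 to 10.45, 10.68 and 10.68, by 1.07 ± 0.13 (adjusted p = 2.5e-08). Of 4 ethylene pathway genes none was called, with EIN3, the transcription factor downstream of EIN2, at -0.12 ± 0.11, and of 3 aliphatic glucosinolate genes none was called, with BCAT4 at -0.69 ± 0.26. Among 17 genes of chromosomes and mitosis 1 rose with elf18, 7 with Pep2 and 3 in pepr1 pepr2. The shares risen over all probe sets were 6.57%, 9.25% and 4.52%. POLA3 of DNA replication was at -0.57 ± 0.14 with elf18 and 1.45 with Pep2, a difference of -2.02 ± 0.20 (adjusted p = 1.3e-10). For starch metabolism none of 4 genes was called with elf18, while DPE1, a glucanotransferase of starch breakdown, rose by 2.26 with Pep2 and by 1.93 in pepr1 pepr2 and the elf18 change minus the latter was -1.38 ± 0.25 (adjusted p = 5.4e-05). The part of tissue composition in the lower photosynthesis transcripts was not tested.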

How the data were processed

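The authors' deposited values are log2 probe-set levels made with GCRMA, per the submitters' processing notes, with no version or further step given. GCRMA corrects probe background, so differences near the shared lowest value, 2.08, depend on that correction, and 27.4% of values lie within 0.1 of it. Precision is set by the number of arrays. Genes were named from the platform annotation where a probe set had exactly 1 gene (13513, with 503 paired with several and 8730 with none), and product descriptions are general background. Positions are not printed, since the sources used here give no build for the probe sets, and no promoter sequences were used here, so a planned motif description was not run.

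Probe sets at log2 5 or above on at least 3 arrays were fitted with limma 3.58.1 (R 4.3.3), a mean per group over all 51 arrays (17 groups, 34 residual and 3.84 prior degrees of freedom), with Benjamini-Hochberg adjustment within each of 11 contrasts. Calls needed an adjusted p under 0.05 and a 2-fold difference, and differences of changes were tested as contrasts in the same fit. Differences are given with their standard error from this fit. It uses 1 moderated spread per probe set, pooled over all 17 groups, and 3 arrays per group. It is not the spread of the arrays compared alone. Figures used matplotlib 3.10.9. Tested on simulated data for the main contrast, the fit recovered 94% of 100 probe sets changed by 1.5 log2 units and 100% of 100 changed by 3. There was 1 false call among the rest of the 14568 probe sets.

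Residuals of same-numbered 2 h and 10 h arrays correlated at 0.11, 0.15 and 0.20, and those of differently numbered arrays at -0.16 to 0.01. Residuals cancel within each group, so part of this contrast in sign is arithmetic. The replicate numbers come from the sample titles and may pair these 2 groups. The reported fit has no replicate term, and a replicate block was tried as an alternative. In the other series, wild type with Pep2 included, same-numbered pairs correlated at -0.09 to 0.27, some below 0.1. No 2 arrays held identical values.

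Named genes were, among probe sets with 1 gene, the 12 largest increases and decreases, the 6 largest each way with both means at log2 6 or above, the 5 largest each way in each of the 3 differences of changes, EFR, and up to 4 members of each gene list by size of change (every member for immunity, clock, receptor and photosynthesis lists). Gene lists and members were chosen with earlier results of these data known, 25 of the 52 lists from annotation names. Members named beyond this rule (SBPASE, PSB27) were chosen after their values were seen. Alternatives were another filter, an intensity trend, fits of only the groups compared, a replicate block, other scalings, weighted arrays, calls without a fold threshold, and omission of each array in turn.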

Additional observations from a re-analysis of the deposited data

Results flagged for a closer look

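The values here are differences between 2 changes from 2 h to 10 h, each tested as an interaction contrast in limma with the call rule of the report. Against Pep2 in wild type, the elf18 change was higher for 1529 probe sets and lower for 1484. The 5 largest higher differences were AT3G48650 at 7.36, AT4G23610 at 6.88, AT5G52740 at 6.19, AT4G19370 at 6.09 and AT1G24140 at 6.06. The 5 largest lower ones were AT5G52390 at -7.22, AT3G29970 at -5.91, AT2G39920 at -5.09, CIL at -4.53 and PDF1.2 at -4.29. AT3G29970, of the B12D family, read 8.14, 9.10 and 6.01 at 2 h and 2.47 on each 10 h array of elf18, and differed by 0.63 with Pep2.

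Against pepr1 pepr2 with Pep2, the elf18 change in wild type was higher for 790 probe sets and lower for 670. The highest were AT1G73120 at 7.00, AT2G27420 at 6.03, AT1G19960 at 5.59, AT3G60470 at 4.66 and AT4G28420 at 4.58. The lowest were AT2G39920 at -5.14, AT2G34930 at -4.88, AT5G47330 at -4.44, AT4G01130 at -4.32 and AT1G31690 at -3.62. AT2G27420 stands among the higher differences with -0.59 for elf18 and -6.63 for pepr1 pepr2.

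For ein2 minus wild type, both with elf18, 150 probe sets were higher and 107 lower. The highest were AT5G62330 at 3.93, AT5G57760 at 3.30, AT5G22555 at 3.29, AT5G59490 at 2.76 and THI2.2 at 2.75. The lowest were AT4G28420 at -4.40, AT1G14550 at -3.93, GLR2.9 at -3.72, AT3G61390, a U-box protein, at -3.16 and ATGLR1.2 at -3.03. AT5G62330 differed by -0.21 in wild type and by 3.72 in ein2.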

How the results depend on the processing

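No called direction of a count, list or named gene reversed under the alternatives run, though differences of uncalled genes near 0 could change sign, and of the values tried for named genes 46 lost and 62 gained the call, 47 of the latter from dropping the fold minimum. Without the fold minimum the elf18 change gave 3311 risen and 3531 fallen probe sets, the difference from Pep2 2716 higher and 3507 lower, the difference from pepr1 pepr2 1951 and 2158, and the difference of ein2 from wild type 206 lower. That last comparison also moved with a filter at log2 7 (61 lower), with a fit of only the groups compared (86 higher, 62 lower) and with array weights (231 higher, 229 lower), and the cause was not tested. Leaving out each array in turn, the elf18 change ranged from 907 to 1051 risen and from 840 to 960 fallen, the difference from Pep2 from 1464 to 1585 and from 1376 to 1654, that from pepr1 pepr2 from 720 to 824 and from 592 to 730, and that of ein2 from 106 to 182 and from 76 to 140. With the replicate number as a block the elf18 change gave 959 risen and 878 fallen, the pairing moved no count of calls by over 1.5 times, and it changed the call of no named gene in that contrast. PUB24 ranged from 0.86 to 1.12, PORB from 0.97 to 1.36, PSAN from -1.18 to -0.87, psaC from -1.71 to -0.74 and psbC from -1.29 to -0.93. Other scalings moved the share of calls that were higher from 52.2% to 52.9% and 54.8%. Signal near 2.08 limits what can be said of transcripts there, and 3 arrays per group limit the precision.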
